A study of Homo sapiens with 16 samples.

Results

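Collagen and laminin genes were taken as every row of the count table whose symbol has the form of a collagen chain (COL, a type number, A, a chain number) or of a laminin chain (LAMA, LAMB or LAMC and a number). The rule found 55 of 23459 genes. They comprise 11 fibrillar collagen genes, 8 genes of basement membrane collagens (types IV, XV and XVIII), 24 other collagen genes and 12 laminin genes. A filter on low counts left 49 of the 55 for testing, and 6 members failed it. Failing were COL1A2, COL5A3, COL4A5, COL4A6, COL15A1 and COL20A1, whose levels are given near the end.

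RNA was sequenced from Be(2)-C and IMR5-75, 2 human neuroblastoma cell lines that both carry amplified MYCN, of which Be(2)-C is a clonal subline. Both lines were cultured in RPMI medium. Their 4 treatments were DMSO, which is the solvent, a 72 h exposure to 1 µM DAC, a 96 h exposure to 1 µM EPZ-6438 (called EPZ here), and the 2 exposures combined. DAC is not written out in the labels, and is the usual short form of decitabine, a nucleoside that blocks the enzymes which methylate DNA at CG. EPZ-6438 inhibits EZH2, the enzyme of the repressive histone mark H3K27me3. Each of the 8 groups held 2 libraries, and whether 2 libraries of a group stem from different cultures is not in the labels. The p-values therefore reflect library-to-library spread, which may be technical.

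Collagens are trimers of polypeptide chains wound into a triple helix. Fibrillar collagens (types I, II, III, V, XI, XXIV and XXVII) assemble into the cross-striated fibrils of connective tissue and cartilage, while type IV collagen and laminins each build a sheet-like network in basement membranes. A laminin is made of 1 alpha, 1 beta and 1 gamma chain, so a cell that makes LAMB1 and LAMC1 still needs an alpha chain, such as LAMA1 or LAMA4, to secrete a complete molecule. Neuroblastoma arises from the sympathoadrenal neural crest, and the stroma around its cells is usually the main source of fibrillar collagen in a tumour.

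Library totals ran from 9539557 to 14032155 counts, and levels are given as CPM, counts scaled to library size, with TMM factors from 0.9276 to 1.116. A floor of 3 counts corresponds to 0.206 to 0.315 CPM per library. HAND2, a transcription factor of sympathetic neurons and neuroblastoma, read between 352 and 806 CPM in every library. TH, the first enzyme of catecholamine synthesis, read 53.2 to 89.2 CPM in Be(2)-C but at most 2.6 CPM in IMR5-75. Markers of blood and vessel cells were low: 6 haematopoietic genes together read 3.7 to 10.4 CPM and 6 endothelial genes 1.11 to 6.25 CPM, with HBB and PECAM1 at or near 0 throughout. A list of 10 fibroblast and stromal genes summed to between 238 and 356 CPM per library, carried by THY1, DCN and PDGFRB in Be(2)-C and by PRRX1 and PDGFRA in IMR5-75, while FAP, POSTN and TWIST2 were at or near 0.

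Because DAC acts on DNA methylation at CG, the 250 bases before the start are shown for 4 members that rose after DAC in IMR5-75 (COL11A1, COL24A1, COL9A2 and LAMA2) and for LAMB1, which was abundant and not called there. The 4 were not picked by a rule. Windows of all matched members that rose there held 1 to 32 CG. The stretch between the starts of COL4A1 and COL4A2, which are read in opposite directions, is added. All are RefSeq sequences of GRCh38.p14, written 5′ to 3′ on the stated strand with each CG in capitals; the counts themselves were made on hg19.
COL11A1 (chr1:103108523-103108772, minus strand): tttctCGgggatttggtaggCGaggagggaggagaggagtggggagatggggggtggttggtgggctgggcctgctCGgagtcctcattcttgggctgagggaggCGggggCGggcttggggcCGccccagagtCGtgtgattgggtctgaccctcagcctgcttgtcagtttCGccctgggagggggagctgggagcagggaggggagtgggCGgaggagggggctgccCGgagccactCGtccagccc
COL24A1 (chr1:86156773-86157022, minus strand): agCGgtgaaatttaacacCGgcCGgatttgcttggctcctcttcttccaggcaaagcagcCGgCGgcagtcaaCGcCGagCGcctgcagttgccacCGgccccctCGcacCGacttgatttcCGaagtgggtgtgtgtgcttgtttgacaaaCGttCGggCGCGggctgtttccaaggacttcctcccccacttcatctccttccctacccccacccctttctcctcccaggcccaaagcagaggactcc
COL9A2 (chr1:40317287-40317536, minus strand): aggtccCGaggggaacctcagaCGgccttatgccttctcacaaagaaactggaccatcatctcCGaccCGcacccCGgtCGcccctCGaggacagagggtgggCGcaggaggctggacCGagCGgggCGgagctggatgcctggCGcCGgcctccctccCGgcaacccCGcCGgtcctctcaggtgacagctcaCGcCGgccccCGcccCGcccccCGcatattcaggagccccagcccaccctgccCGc
LAMA2 (chr6:128882888-128883137, plus strand): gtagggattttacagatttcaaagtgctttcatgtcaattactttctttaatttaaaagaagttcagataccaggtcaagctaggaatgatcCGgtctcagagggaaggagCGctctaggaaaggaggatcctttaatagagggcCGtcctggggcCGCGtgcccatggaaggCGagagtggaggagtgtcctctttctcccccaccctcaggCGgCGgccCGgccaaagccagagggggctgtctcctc
LAMB1 (chr7:108003162-108003411, minus strand): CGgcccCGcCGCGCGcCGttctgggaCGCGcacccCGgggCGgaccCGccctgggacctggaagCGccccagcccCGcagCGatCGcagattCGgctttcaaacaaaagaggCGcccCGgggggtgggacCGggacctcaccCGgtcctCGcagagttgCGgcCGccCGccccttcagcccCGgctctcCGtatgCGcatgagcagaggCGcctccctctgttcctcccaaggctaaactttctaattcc
COL4A1 and COL4A2, between the starts (chr13:110307158-110307283, plus strand): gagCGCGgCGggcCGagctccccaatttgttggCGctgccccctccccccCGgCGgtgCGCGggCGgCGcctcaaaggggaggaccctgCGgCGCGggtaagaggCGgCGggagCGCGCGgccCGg
The COL11A1 window holds 11 CG, that of COL24A1 16, that of COL9A2 22, that of LAMA2 9 and that of LAMB1 28. The share of all 35116 promoter windows with at least as many is 50.3%, 41.0%, 28.0%, 54.1% and 15.9%, in the same order. Only 126 bases separate the COL4A1 and COL4A2 starts, and they hold 20 CG.

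Before any drug the lines made different chains. Among DMSO libraries 34 of the 49 tested members differed between the lines (edgeR's quasi-likelihood test, adjusted p under 0.05), beside 63.2% of all genes tested, so this share is near the background. In IMR5-75 19 of them were higher and 15 were lower than in Be(2)-C. Levels of different genes are compared here as CPM per kb of the longest coding transcript in GENCODE 29.

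LAMB1 and LAMC1, the beta and gamma chain of the most widespread laminins, led Be(2)-C at 50.8 and 24.7 CPM per kb. They ranked 1 and 3 among the members in IMR5-75, at 52.4 and 25.5 CPM per kb. LAMB1 read 290 and 297 CPM in Be(2)-C DMSO and 314 and 289 CPM in IMR5-75 DMSO, so its libraries overlapped (log2 difference 0.04 ± 0.11, SE, adjusted p = 0.75).

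The abundant alpha chain differed. LAMA1, the alpha chain of embryonic basement membranes, read 180 and 177 CPM in IMR5-75 DMSO against 0.272 and 0.0918 CPM in Be(2)-C, which is 3 and 1 counts. Its log2 difference was 9.85 ± 0.27. Without the first Be(2)-C DMSO library the ratio was 1940 with a 95% interval from 349 to 76800, an exact binomial interval covering counting error only. LAMA4, the alpha chain of vessel and mesenchymal laminin, went the other way, with 68.8 and 66.8 CPM in Be(2)-C and 0.59 and 0.505 CPM in IMR5-75 (log2 difference -6.92 ± 0.27, adjusted p = 3e-15). Per kb LAMA4 ranked 3 in Be(2)-C at 10.4 CPM and LAMA1 ranked 4 in IMR5-75 at 18.4 CPM. These are RNA levels of bulk cultures, in which fewer cells making a transcript and less of it per cell cannot be told apart.

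Of type IV collagen, COL4A1 and COL4A2 were a feature of IMR5-75. COL4A2 read 177 and 187 CPM in its DMSO libraries and 1.27 and 0.643 CPM in those of Be(2)-C, a log2 difference of 7.55 ± 0.22. COL4A1, its partner in the common alpha1-alpha1-alpha2 network, read 92 and 108 CPM against 0.634 and 0.367 CPM (7.61 ± 0.25). For each gene both libraries of IMR5-75 lay far above either library of Be(2)-C. Per kb COL4A2 ranked 2 and COL4A1 ranked 5 in IMR5-75, at 28.0 and 15.1 CPM. The other tested type IV genes were low in the DMSO libraries of both lines and not called between them. COL4A3 read at most 0.811 CPM there and COL4A4 at most 0.459 CPM. COL18A1, the precursor of endostatin, was expressed in both lines, with 35.3 and 43.2 CPM in IMR5-75 and 14.4 and 16.7 CPM in Be(2)-C (1.33 ± 0.16).

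**Figure D1:**
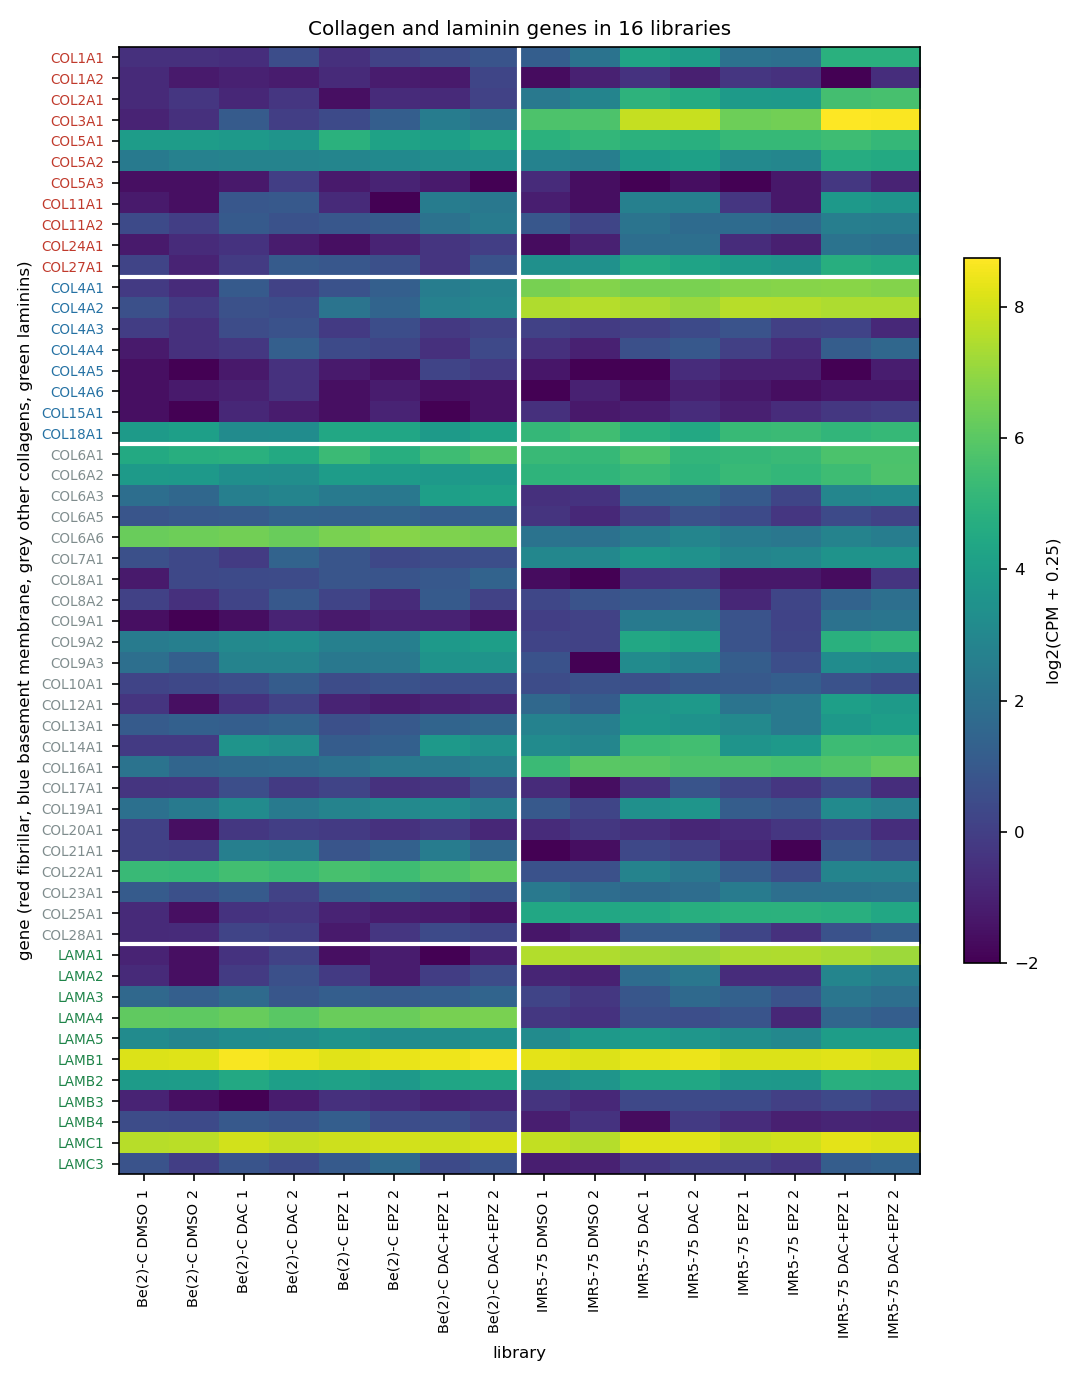
Level of collagen and laminin genes (rows, grouped by class) in the 16 libraries (columns), as log2 of CPM plus 0.25. LAMB1 and LAMC1 are bright in every library, COL4A1, COL4A2, COL3A1 and LAMA1 mainly in IMR5-75, and LAMA4, COL6A6 and COL22A1 mainly in Be(2)-C.

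Of fibrillar collagens, IMR5-75 made mainly type III. COL3A1 read 54 and 52.8 CPM there and 0.272 and 0.459 CPM in Be(2)-C, whose second library alone holds 5 counts (log2 difference 7.15 ± 0.29). Left without that library, the ratio was 197 with an interval from 67.2 to 955. COL5A1, a chain of type V collagen that sets fibril diameter, was the leading fibrillar gene of Be(2)-C at 15.1 CPM in both libraries, or 1.78 CPM per kb. COL1A1, the main chain of type I, stayed at or below 4.04 CPM in the DMSO libraries of both lines. Its partner COL1A2 read at most 0.363 CPM there and failed the filter.

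Of the other collagens, Be(2)-C made COL6A6, a chain of beaded type VI filaments, at 77.6 and 83.2 CPM against 4.05 and 3.79 CPM in IMR5-75 (log2 difference -4.35 ± 0.17). COL22A1, a collagen of tissue junctions, read 38.8 and 36.6 CPM against 1.4 and 1.35 CPM (-4.77 ± 0.23). IMR5-75 was higher in COL16A1, with 40.3 and 63 CPM against 3.99 and 2.57 CPM (3.97 ± 0.24), and in the membrane-spanning COL25A1, with 21.4 and 21.2 CPM against 0.363 and 0.0918 CPM. COL25A1 differed by 6.48 ± 0.32 on the log2 scale, and without the first Be(2)-C DMSO library, which leaves 1 count, the ratio was 232 (interval 41.4 to 9180). Its log2 difference was 5.83 without the second.

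Most other calls between the lines had lower levels, and several rested on 1 library. COL6A1, COL8A1, COL9A3, LAMB2, LAMB4 and LAMC3 were among those that lost the call in at least 1 fit without a DMSO library. Their highest adjusted p values in those fits were 0.108 for COL6A1 (without Be(2)-C DMSO 1), 0.328 for COL8A1 (without Be(2)-C DMSO 2) and 0.065 for COL9A3 (without Be(2)-C DMSO 1). They were 0.179 for LAMB2 and 0.184 for LAMB4 (both without IMR5-75 DMSO 1), and 0.0855 for LAMC3 (without Be(2)-C DMSO 1).

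**Figure D2:**
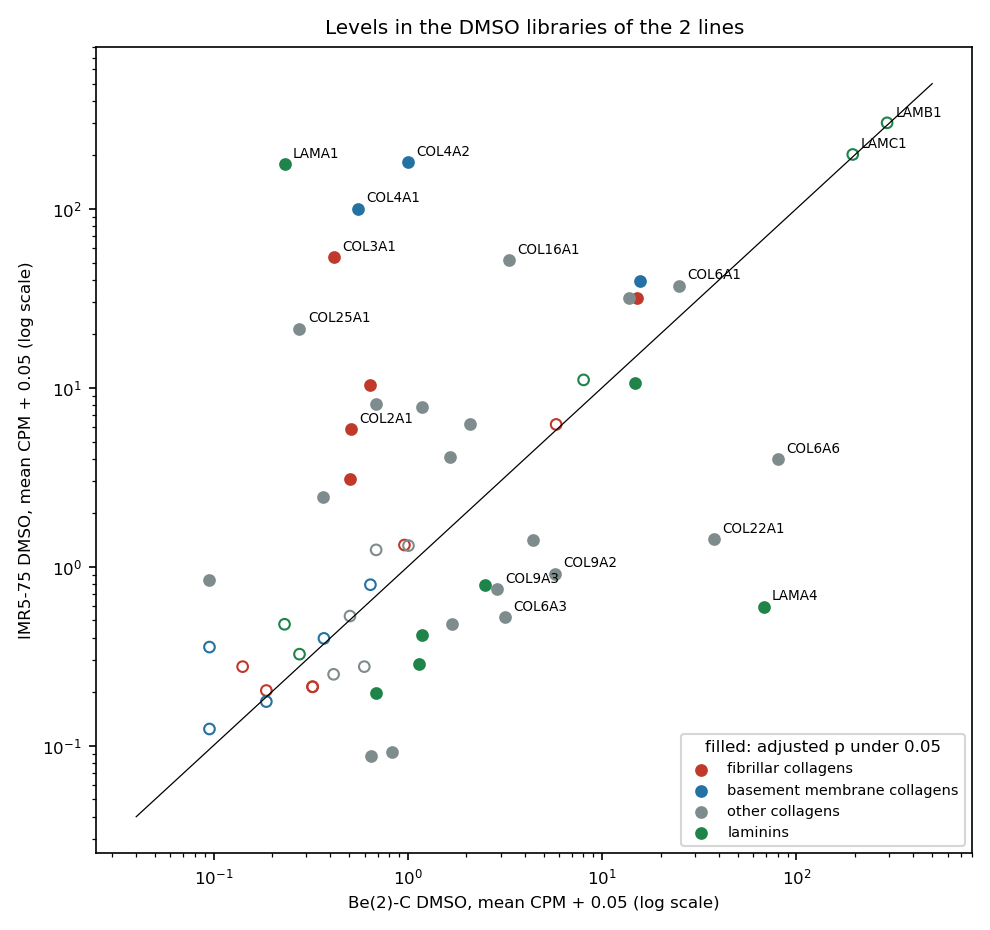
Mean CPM plus 0.05 of each member in the 2 DMSO libraries of Be(2)-C (horizontal, log scale) and IMR5-75 (vertical, log scale), coloured by class and filled where the lines differed at an adjusted p under 0.05; the line marks equal levels. LAMB1 and LAMC1 sit on the line, LAMA1, COL4A1, COL4A2 and COL3A1 far above it, and LAMA4, COL6A6 and COL22A1 far below.

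After DAC, 27 of 49 tested members rose in IMR5-75 and 1 fell, beside 33.7% of all genes called either way, 19.9% higher and 13.8% lower. The median log2 fold change was 1.25 for the members and 0.02 for all genes. By class the counts were 8 of 9 tested fibrillar genes higher (median 2.07), 14 of 23 other collagens (median 2.0), 4 of 12 laminins (median 0.85) and 1 of 5 basement membrane collagens (median -0.10), where 1 also fell. The filter keeps a gene with enough counts in any 1 group, so some members were tested only through groups where they are high. COL24A1, for example, held 1 and 3 counts with DMSO and 49 and 46 with DAC. Members low in every group, such as COL1A2 and COL5A3, are left out. This bears on the class counts and medians of every treatment.

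Fibrillar genes rose from very different starting levels. COL3A1 went from 54 and 52.8 CPM with DMSO to 221 and 228 CPM (log2 fold change 2.07 ± 0.15, adjusted p = 7.2e-10). COL2A1, the cartilage collagen, read 4.79 and 6.9 CPM before and 30.4 and 24.2 CPM after (2.23 ± 0.20), and COL1A1 read 2.06 and 4.04 CPM before and 19.9 and 15.5 CPM after (2.56 ± 0.26). COL11A1, which starts type XI and type II fibrils, read 0.221 and 0.0841 CPM before and 6.09 and 5.93 CPM after. In each of these genes both DAC libraries lay above both DMSO libraries.

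COL11A1 had 4 counts in the DMSO group, and its fold change of 5.17 ± 0.49 on the log2 scale leans on them. Without DMSO 1 the ratio was 71.5 (interval 12.6 to 2840), and without DMSO 2 it was 27.2 (9.14 to 133). COL24A1, a less abundant fibrillar chain, rose from 0.0737 and 0.252 CPM to 3.47 and 3.59 CPM (4.40 ± 0.51), with ratios of 14 (4.64 to 69.0) without the first and 47.8 (8.38 to 1910) without the second DMSO library. COL5A2 (1.35 ± 0.17), COL11A2 (1.5 ± 0.32) and COL27A1 (1.02 ± 0.22) rose less. COL5A1, the exception, read 29 and 34 CPM before and 30 and 27.2 CPM after, which overlap.

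The type IV genes that dominate this class did not pass the test. COL4A1 read 92 and 108 CPM with DMSO and 91.6 and 94.7 CPM with DAC, and COL4A2 177 and 187 against 168 and 140 CPM (log2 fold changes -0.10 ± 0.14 and -0.24 ± 0.13). COL18A1 fell from 35.3 and 43.2 CPM to 27.8 and 22.1 CPM (-0.65 ± 0.15, adjusted p = 0.002). COL4A4, a chain of the restricted type IV network of kidney and ear, rose at low level from 0.442 and 0.252 CPM to 1.27 and 1.72 CPM (2.04 ± 0.62), a call that ended without DMSO 2 (adjusted p = 0.101) or DAC 2 (0.0795).

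Among other collagens the 3 chains of type IX, which coats cartilage fibrils, rose together. COL9A2 read 0.885 and 0.841 CPM with DMSO and 21.4 and 17.8 CPM with DAC, a log2 fold change of 4.49 ± 0.24 (adjusted p = 1.6e-11). COL9A1 went from 0.737 and 0.841 to 4.96 and 4.76 CPM (2.61 ± 0.35). COL9A3 went from 1.4 and 0 to 8.92 and 6.63 CPM (3.38 ± 0.45), with 1 DMSO library at 0 counts. Without DMSO 1 its rise was at least 31.0-fold, and without DMSO 2 its log2 fold change was 2.46.

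COL14A1 and COL12A1, which decorate type I fibrils, also rose. COL14A1 went from 8.7 and 7.32 to 41.2 and 44.4 CPM (2.41 ± 0.16), and COL12A1 from 2.87 and 1.93 to 11.9 and 13.3 CPM (2.37 ± 0.25). COL19A1 (2.99 ± 0.33), COL22A1 (2.02 ± 0.28), COL6A3 (2.50 ± 0.38), COL28A1 (3.17 ± 0.55) and COL13A1 (0.90 ± 0.22) rose as well. COL21A1 had 1 count in the DMSO group against 24 after DAC, a ratio of 22.7 (interval 3.7 to 932). It was 10.6 (1.73 to 435) without DMSO 1, and at least 4.03 without DMSO 2.

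The remaining calls were the weakest. COL8A1 had 1 count against 14, a ratio of 13.2 (interval 2.01 to 559), and lost its call without any 1 of the 4 libraries (adjusted p from 0.0593 to 0.148). COL17A1 (2.00 ± 0.77) lost it without DMSO 1, DMSO 2 or DAC 2 (0.0521, 0.266 and 0.468). Its log2 fold change was 1.36 without DMSO 2, 2.61 without DAC 1 and 1.05 without DAC 2, and without DMSO 1, which leaves 1 count, the ratio was 11.5 (interval 1.88 to 470). COL6A6 (0.64 ± 0.20) lost it without the same 3 libraries (0.0502, 0.0991 and 0.188).

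Of laminin genes, LAMA2, the alpha chain of muscle and Schwann cell basement membranes, changed most. It read 0.295 and 0.252 CPM with DMSO and 3.26 and 4.52 CPM with DAC (3.77 ± 0.48). LAMB2 rose from 9.14 and 11.9 CPM to 21.1 and 21 CPM (1.01 ± 0.17). LAMC1 rose from 215 and 187 CPM to 298 and 301 CPM (0.57 ± 0.11, adjusted p = 0.00052), the largest gain in CPM among the called laminins. LAMA3 (1.55 ± 0.45) lost its call without DMSO 2 or DAC 2 (adjusted p = 0.084 and 0.151). LAMA1 read 157 and 142 CPM after DAC and was not called (-0.26 ± 0.13), and LAMB1 read 326 and 340 CPM (0.14 ± 0.11).

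In the same comparison 4 of 10 stromal markers, of which 7 were tested, rose (ACTA2, DCN, LUM and PRRX1) and PDGFRA fell. This stands beside 19.9% of all genes called higher and 13.8% lower. The stromal sum went from 238 and 277 CPM to 282 and 315 CPM. Of 7 Schwann and glial markers, 6 of them tested, 4 rose, among them CDH19 and ERBB3. That list's sum was 3.62 to 5.16 CPM before and 16.5 to 16.6 CPM after, while SOX10 read at most 0.312 CPM after DAC. Of 6 endothelial markers (5 tested) 3 rose (CDH5, KDR and TEK), and of 6 haematopoietic markers (3 tested) PTPRC. Of 8 neuroblastoma markers, all tested, CHGA and DBH rose. The part of these shifts in the result was not tested.

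**Figure D3:**
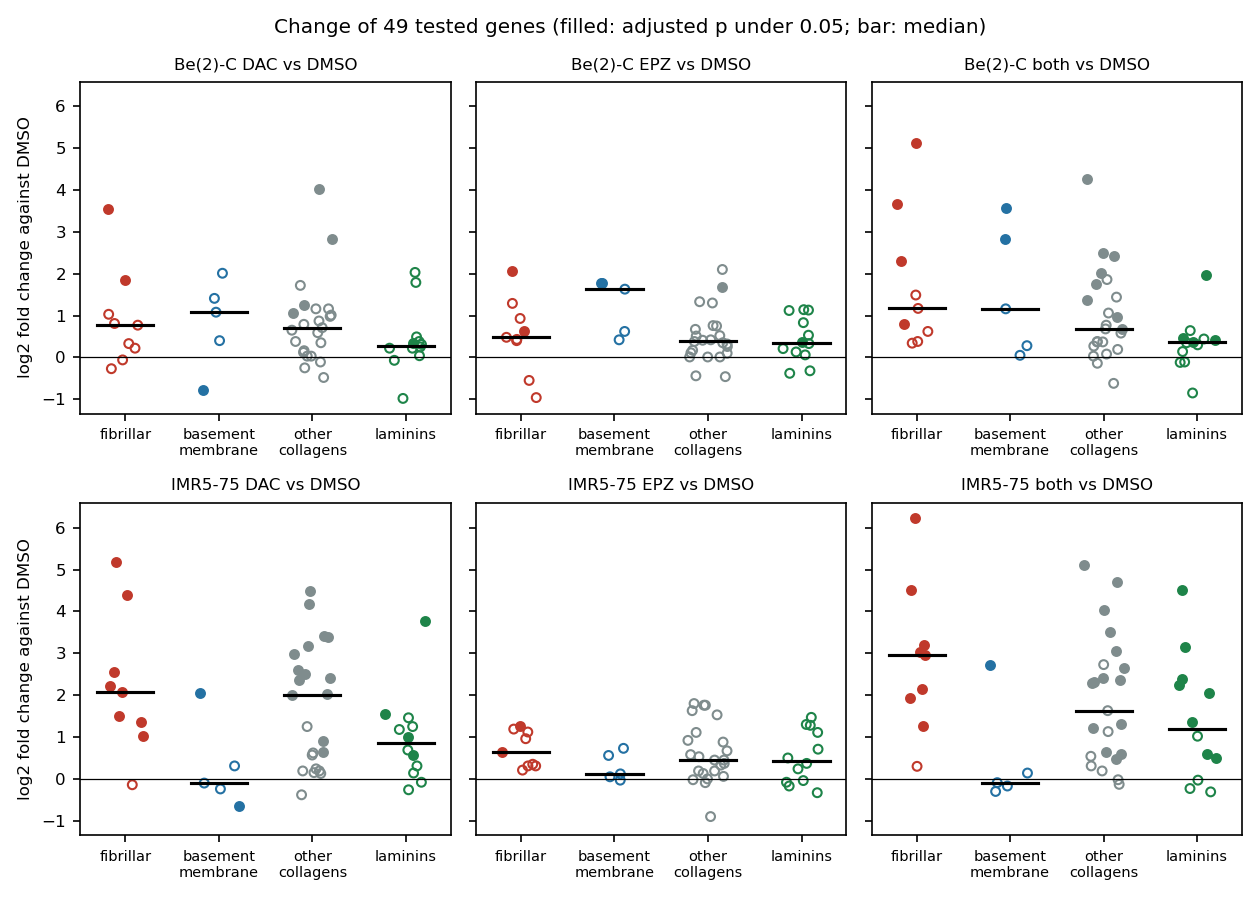
Log2 fold change against DMSO (vertical) of the 49 tested members by class, in 6 panels for each line and treatment; points are genes, filled where the adjusted p was under 0.05, and bars are class medians. In IMR5-75 with DAC the fibrillar median is 2.07 and that of basement membrane collagens -0.10, and in Be(2)-C with EPZ COL4A1 and COL4A2 lie close to 1.78.

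EPZ alone called 2 members in IMR5-75, both fibrillar and both higher, beside 1.98% of all genes called either way, 1.63% higher and 0.344% lower. COL2A1 rose from 4.79 and 6.9 CPM to 14.3 and 13.8 CPM (log2 fold change 1.27 ± 0.21, adjusted p = 0.0024). COL3A1 rose from 54 and 52.8 CPM to 81.4 and 86.4 CPM (0.65 ± 0.14, adjusted p = 0.02). For both genes the EPZ libraries lay above the DMSO libraries. The COL3A1 call ended without any 1 of the 4 libraries, with adjusted p of 0.0571 without DMSO 1, 0.191 without DMSO 2, 0.109 without EPZ 1 and 0.14 without EPZ 2. All 9 tested fibrillar genes had a positive log2 fold change, with a median of 0.65, and the members' median was 0.45 beside 0.01 for all genes. Positive values also made up 20 of 23 other collagens (median 0.45), 8 of 12 laminins (0.44) and 4 of 5 basement membrane collagens (0.12). Among all members they were 41 of 49, beside 8355 of 15967 genes tested. CHGA was the 1 gene called among the marker lists, and stromal markers summed to 304 to 329 CPM and Schwann and glial ones to 7.16 to 8.51 CPM. Their part in the result was not tested.

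With both drugs 32 of 49 members rose in IMR5-75 and none fell by this test, beside 46.2% of all genes called either way, 25.7% higher and 20.4% lower. The median was 1.63 beside 0.03 for all genes. Fibrillar genes again gave 8 of 9 (median 2.97), other collagens 15 of 23 (median 1.63), laminins 8 of 12 (median 1.19) and basement membrane collagens 1 of 5 (median -0.09).

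COL3A1 reached 428 and 409 CPM (log2 fold change 2.97 ± 0.15, adjusted p = 3.5e-12), so that both libraries lay above those of either drug alone. COL2A1 reached 45.6 and 48.7 CPM (3.02 ± 0.20), COL1A1 28 and 28 CPM (3.21 ± 0.25) and COL11A1 13.5 and 11.6 CPM (6.23 ± 0.44). For COL11A1 the ratio without DMSO 1 was 149 (interval 26.6 to 5900), and without DMSO 2 it was 56.7 (19.2 to 276). Fibrillar genes took 8.25 and 8.72% of all member counts in the DMSO libraries, 11.4 and 11.3% with EPZ, 19.7 and 20.0% with DAC and 29 and 28.8% with both drugs. Much of this class share was COL3A1. It held 733 of 1479 and 628 of 1375 fibrillar counts with DMSO, and 5834 of 8426 and 5957 of 8581 with both drugs. The share of basement membrane collagens was 23.2 and 25.6% with DMSO and 15.0 and 15.6% with both drugs, while COL4A1 and COL4A2 themselves kept to 107 to 113 and 170 to 172 CPM.

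Of type IX, COL9A2 reached 28 and 32 CPM (5.10 ± 0.24, adjusted p = 1.5e-12), and COL9A1 (2.37 ± 0.36) read 3.89 and 4.33 CPM. COL9A3 (3.52 ± 0.45) was at least 34.2-fold higher without DMSO 1 and 2.60 higher on the log2 scale without DMSO 2. Of the type VI chains COL6A3, the largest of the common chains, rose from 0.442 and 0.505 CPM to 7.41 and 8.39 CPM (4.04 ± 0.32). Its partners COL6A1 (0.47 ± 0.19) and COL6A2 (0.59 ± 0.14) rose less from higher levels, and the COL6A1 call ended without any 1 of the 4 libraries (adjusted p from 0.0772 to 0.181).

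Further calls were COL5A2 (1.94 ± 0.17), COL11A2 (2.15 ± 0.30), COL24A1 (4.52 ± 0.50), COL27A1 (1.26 ± 0.22), COL4A4 (2.71 ± 0.58), COL12A1 (2.65 ± 0.25), COL13A1 (1.22 ± 0.21) and COL14A1 (2.32 ± 0.16). They continued with COL19A1 (2.42 ± 0.34), COL22A1 (2.30 ± 0.27), COL28A1 (3.05 ± 0.56), COL8A2 (1.32 ± 0.42) and COL6A6 (0.65 ± 0.20). COL21A1 had 36 counts against 1, a ratio of 32.5 (interval 5.48 to 1320), which was 15.2 (2.56 to 616) without DMSO 1 and at least 5.78-fold without DMSO 2. COL24A1 gave ratios of 15.2 (5.06 to 74.8) and 52.0 (9.14 to 2070) without DMSO 1 and DMSO 2, and COL19A1 gave 3.03 on the log2 scale without DMSO 1. COL8A2 lost its call without DMSO 1 or DAC+EPZ 2 (adjusted p = 0.11 and 0.124), and COL6A6 without DMSO 2 or DAC+EPZ 1 (0.0753 and 0.068).

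Some laminin calls with both drugs were ones that neither drug gave alone. Tested directly against DAC alone, however, only 1 of 12 laminins was called, LAMC3. With DAC alone LAMA4 read 1.27 and 1.25 CPM, above both DMSO libraries. LAMA5 read 14.9 and 12.3 CPM with DAC alone and 15.5 CPM in each library given both drugs. LAMA4 rose from 0.59 and 0.505 CPM to 2.57 and 2.06 CPM (2.05 ± 0.41), still far under its level in Be(2)-C. LAMC3, a gamma chain of brain and retina, rose from 0.221 and 0.252 CPM to 1.98 and 2.34 CPM (3.14 ± 0.52). Each DMSO library holds 3 counts, and the ratio was 8.58 (interval 2.8 to 42.8) without DMSO 1 and 9.79 (3.2 to 48.8) without DMSO 2. LAMA5 (0.49 ± 0.19) lost its call without DMSO 1, DAC+EPZ 1 or DAC+EPZ 2 (adjusted p = 0.371, 0.0793 and 0.0869). LAMA2 (4.51 ± 0.45), LAMA3 (2.39 ± 0.41), LAMB2 (1.35 ± 0.17) and LAMC1 (0.60 ± 0.11) were called with DAC alone too. LAMA1 (162 and 142 CPM) and LAMB1 (307 and 283 CPM) were not called.

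Against DAC alone, 7 of 49 members were higher with both drugs in IMR5-75, beside 1.94% of all genes called, 1.22% higher and 0.72% lower. They were COL3A1 (0.90 ± 0.14), COL6A3 (1.54 ± 0.23), COL11A1 (1.06 ± 0.24), COL2A1 (0.79 ± 0.17), COL5A2 (0.59 ± 0.15), COL9A2 (0.61 ± 0.15) and LAMC3 (1.68 ± 0.41). COL3A1 and COL6A3 kept the call without any 1 library. The other 5 each lost it in at least 3 of those fits, so that 2 to 5 members were called, with 2 left without DAC 2, DAC+EPZ 1 or DAC+EPZ 2. Without DAC 2 the adjusted p was 0.182 for COL11A1, 0.233 for COL2A1 and 0.359 for COL9A2. The highest was 0.177 for COL5A2, without DAC+EPZ 1, and 0.255 for LAMC3, without DAC+EPZ 2. Against EPZ alone, 30 of 49 were higher, beside 37.6% of all genes called, 20.7% higher and 16.9% lower. These comparisons share the libraries given both drugs.

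No member departed from the sum of the single drugs' log2 fold changes in IMR5-75 by edgeR's quasi-likelihood test, where 0.0251% of all genes did. The unadjusted p was under 0.05 for 4 of 49, and DESeq2's test called 0. Of 10 stromal markers, 7 of them tested, 6 rose with both drugs (ACTA2, DCN, LUM, PDGFRB, PRRX1 and THY1) and PDGFRA fell. This stands beside 25.7% of all genes called higher and 20.4% lower. The stromal sum read 308 to 356 CPM. Schwann and glial markers summed to 21.6 to 24.1 CPM with 4 of 7 higher (6 tested). Endothelial ones summed to 4.33 to 6.25 CPM with 3 of 6 higher (5 tested). Haematopoietic ones summed to 9.17 to 10.4 CPM with CD68 and PTPRC higher (3 of 6 tested). Of 8 neuroblastoma markers CHGA and DBH rose and HAND2 fell (-0.44 ± 0.12, adjusted p = 0.00385). Their part in the result was not tested.

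**Figure D4:**
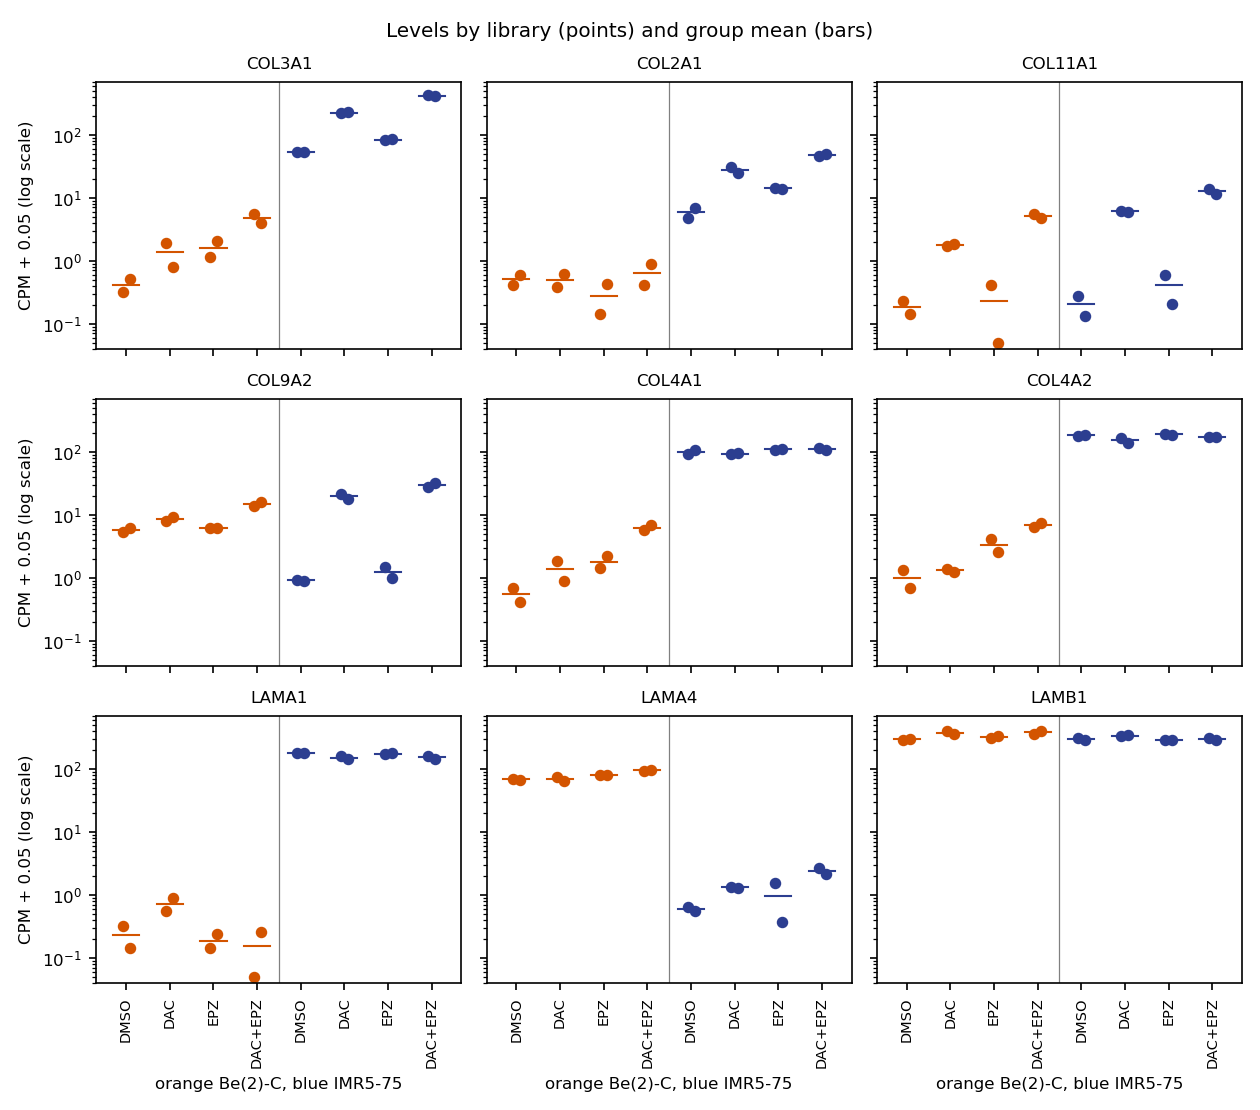
CPM plus 0.05 (vertical, log scale) of 9 members in the 8 groups (horizontal; orange Be(2)-C, blue IMR5-75), with 1 point per library and bars at group means. COL3A1 climbs to 428 and 409 CPM in IMR5-75 with both drugs, COL4A1 and COL4A2 climb in Be(2)-C from below 1.3 to between 5.6 and 7.4 CPM and stay level in IMR5-75, and LAMA1 and LAMA4 mark opposite lines.

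In Be(2)-C DAC raised 7 of 49 members and lowered 1, beside 6.7% of all genes called either way, 3.73% higher and 2.97% lower. The median was 0.49 for the members and 0.02 for all genes. By class 2 of 9 fibrillar genes, 4 of 23 other collagens and 1 of 12 laminins rose, and the 1 called gene of 5 basement membrane collagens fell.

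COL14A1 gave the clearest rise, from 0.634 and 0.643 CPM to 11.4 and 9.73 CPM (log2 fold change 4.03 ± 0.28, adjusted p = 8.4e-09). COL11A1 had 3 counts in the DMSO group and 39 with DAC, a ratio of 12.4 (interval 3.95 to 62.8) that ran from 9.37 (2.43 to 80.1) without DMSO 2 to 18.5 (3.13 to 749) without DMSO 1. COL21A1 rose from 0.816 and 0.735 CPM to 6.01 and 5.09 CPM (2.83 ± 0.44). These 3 calls held without any 1 of the 4 libraries.

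The other 5 did not. COL3A1 (1.85 ± 0.53) went from 0.272 and 0.459 CPM to 1.89 and 0.741 CPM, and its adjusted p was 0.3 without DMSO 1, 0.119 without DMSO 2 and 0.52 without DAC 1, where its log2 fold change was 0.98. COL6A3 (1.06 ± 0.24) lost its call without DMSO 1, DMSO 2 or DAC 2 (0.0566 to 0.136). COL9A3 (1.25 ± 0.38, adjusted p 0.106 to 0.328) and LAMB1 (0.35 ± 0.11, 0.0803 to 0.322) lost it without any 1 of the 4. COL18A1 fell from 14.4 and 16.7 CPM to 8.89 and 9.08 CPM (-0.79 ± 0.18), and lost its call without DMSO 2, DAC 1 or DAC 2 (0.0507 to 0.11). The count of called members was therefore 3 without DMSO 2, 4 without DMSO 1 and 5 without DAC 1 or DAC 2.

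EPZ alone raised 6 of 49 members in Be(2)-C, beside 10.2% of all genes called, 5.35% higher and 4.85% lower, and lowered none by this test. The members' median was 0.42 beside 0.02 for all genes. Of 5 tested basement membrane collagens 2 rose, the paired COL4A1 and COL4A2. COL4A2 went from 1.27 and 0.643 CPM to 4.09 and 2.5 CPM (1.77 ± 0.33, adjusted p = 0.0013), and COL4A1 from 0.634 and 0.367 CPM to 1.36 and 2.13 CPM (1.78 ± 0.44, adjusted p = 0.013). In both genes the EPZ libraries lay above the DMSO libraries.

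The further calls were COL3A1 (2.06 ± 0.52), COL5A1 (0.63 ± 0.20), COL14A1 (1.68 ± 0.38) and LAMC1 (0.37 ± 0.11). COL3A1 read 1.09 and 2.04 CPM after EPZ, COL14A1 1.91 and 2.22 CPM, and LAMC1 244 and 260 CPM against 191 and 198 CPM with DMSO. COL4A2 alone kept its call without any 1 library. COL4A1, COL3A1 and COL14A1 lost it without DMSO 1, DMSO 2 or EPZ 2, at adjusted p of 0.0515 to 0.146, 0.0561 to 0.165 and 0.0508 to 0.0712. COL5A1 lost it without DMSO 1, DMSO 2 or EPZ 1 (0.196 to 0.56, with 0.23 in place of 0.63 without EPZ 1), and LAMC1 without any of the 4 (0.0638 to 0.285). Called members numbered 1 without either DMSO library, 2 without EPZ 2 and 4 without EPZ 1.

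With both drugs 18 of 49 members rose in Be(2)-C and none fell by this test, beside 23.7% of all genes called either way, 13.2% higher and 10.4% lower. The median was 0.62 beside 0.05 for all genes. The counts were 4 of 9 fibrillar genes (median 1.17), 2 of 5 basement membrane collagens (median 1.16), 8 of 23 other collagens (median 0.69) and 4 of 12 laminins (median 0.36).

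COL4A1 reached 5.61 and 6.71 CPM (log2 fold change 3.58 ± 0.35, adjusted p = 2.4e-07) and COL4A2 6.41 and 7.34 CPM (2.83 ± 0.29). Both drugs together gave higher levels than either alone: against DAC the log2 differences were 2.18 ± 0.28 and 2.43 ± 0.27, and against EPZ 1.81 ± 0.27 and 1.05 ± 0.23. COL4A1 was 2.86 above DAC without DAC 1, and the COL4A2 call against EPZ ended without DAC+EPZ 2 or EPZ 2 (adjusted p = 0.0947 and 0.149). These levels stayed far below the 107 to 113 CPM of COL4A1 and 170 to 172 CPM of COL4A2 in IMR5-75 with both drugs.

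Of fibrillar genes, COL3A1 reached 5.52 and 3.88 CPM (3.66 ± 0.41, adjusted p = 1.6e-06). COL11A1 had 106 counts against 3, a ratio of 37.3 (interval 12.4 to 184), which was 55.6 (9.76 to 2220) without DMSO 1. COL11A2 rose from 1.09 and 0.735 CPM to 3.83 and 5.35 CPM (2.31 ± 0.35), and COL5A2 from 5.17 and 6.34 CPM to 9.62 and 10.3 CPM (0.79 ± 0.19, adjusted p = 0.0877 without DMSO 1). COL1A1 (1.16 and 1.47 CPM) and COL2A1 (0.356 and 0.839 CPM) were not called.

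Among other collagens COL14A1 read 13.9 and 10.6 CPM (4.25 ± 0.28) and COL6A3 16.7 and 18.2 CPM against 3.44 and 2.75 CPM with DMSO (2.49 ± 0.22). COL9A2 rose from 5.35 and 6.06 CPM to 13.9 and 15.9 CPM (1.38 ± 0.19) and COL9A3 from 3.53 and 2.11 CPM to 11.2 and 11.6 CPM (2.01 ± 0.36). COL21A1 (2.42 ± 0.46), COL6A1 (0.97 ± 0.20), COL22A1 (0.69 ± 0.16) and COL8A1 (1.76 ± 0.56) completed the 8. COL22A1 lost its call without DAC+EPZ 2 (adjusted p = 0.0615), and COL8A1 without DMSO 1 or DAC+EPZ 2 (0.308 and 0.177). COL8A1 gave 0.98 on the log2 scale without DMSO 1. Its ratio without DMSO 2 was 11.2, with an interval from 2.9 to 95.2.

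The laminin calls were small or low. LAMA4 read 92.3 and 95.6 CPM (0.47 ± 0.15), LAMB1 356 and 401 CPM (0.37 ± 0.11) and LAMC1 251 and 271 CPM (0.42 ± 0.11), each with both libraries above DMSO. LAMA4 lost its call without any 1 of the 4 libraries (adjusted p from 0.091 to 0.164), and LAMB1 and LAMC1 without DMSO 1, DMSO 2 or DAC+EPZ 2 (0.0814 to 0.177 and 0.0552 to 0.113). LAMA2, at 0.712 and 1.15 CPM (1.96 ± 0.71), lost it without any 1 of the 4 (0.0608 to 0.302), its ratio without DMSO 1 was 9.96 (interval 1.58 to 414), and its log2 fold change without DMSO 2 was 1.31. Called members numbered 12 without DMSO 1 or DAC+EPZ 2.

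Against DAC alone 10 of 49 members were higher and 1 lower with both drugs in Be(2)-C, beside 5.44% of all genes called, 3.42% higher and 2.02% lower. They included 3 of 5 basement membrane collagens, COL4A1, COL4A2 and COL18A1. COL18A1 read 14.3 and 17.9 CPM with both drugs against 8.89 and 9.08 CPM with DAC (0.84 ± 0.18). COL18A1 lost this call without DAC 1, DAC 2 or DAC+EPZ 2 (adjusted p 0.0534 to 0.117), and the count was 6 without any 1 of those libraries. COL3A1 (1.81 ± 0.31) and COL6A3 (1.43 ± 0.20) were higher too, with COL3A1 at 2.66 without DAC 1. COL11A1 (1.58 ± 0.33), COL11A2 (1.49 ± 0.31), COL6A1 (0.94 ± 0.20), COL9A2 (0.80 ± 0.18) and COL22A1 (0.54 ± 0.15) each lost the call without at least 2 of the 4 libraries. Their highest adjusted p values were 0.0687 for COL11A1 (without DAC 1), and 0.102 for COL11A2, 0.112 for COL6A1 and 0.417 for COL22A1 (without DAC+EPZ 2). For COL9A2 it was 0.117, without DAC 1. LAMA1 was the 1 lower call, with 15 counts over the DAC group and 2 over the group given both drugs, and it ended without DAC 1, DAC 2 or DAC+EPZ 1 (adjusted p = 0.067, 0.293 and 0.421).

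Against EPZ alone 9 members were higher in Be(2)-C, beside 4.21% of all genes called, 2.84% higher and 1.37% lower. COL4A1, COL14A1 (2.57 ± 0.23), COL6A3 (1.81 ± 0.21), COL9A2 (1.29 ± 0.19) and COL11A1 kept the call without any 1 of the 4 libraries. COL11A1 (4.72 ± 0.52) read 0.363 and 0 CPM with EPZ, which is 4 and 0 counts, and its difference was 3.77 without EPZ 2. COL3A1 (1.60 ± 0.30) lost its call without DAC+EPZ 1 or EPZ 1 (adjusted p = 0.0813 and 0.0528). COL11A2 (1.38 ± 0.31) lost it without DAC+EPZ 2, EPZ 1 or EPZ 2 (0.162, 0.076 and 0.061), and COL9A3 (1.26 ± 0.33) without any 1 of the 4 (0.103 to 0.159). Called members numbered 6 without DAC+EPZ 2 or EPZ 2. These comparisons also share the libraries given both drugs. No member departed from the sum of the single drugs by edgeR's test, where 0.257% of all genes did, with 6 of 49 at an unadjusted p under 0.05 and 0 by DESeq2.

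Markers of other cell types were followed in Be(2)-C as well. With both drugs LUM and PDGFRA rose and DCN fell among 10 stromal markers, of which 7 were tested. This stands beside 13.2% of all genes called higher and 10.4% lower. The stromal sum read 286 to 288 CPM with DMSO and 290 to 298 CPM with both drugs. Of 7 Schwann and glial markers (6 tested) 2 rose (8.63 to 10.4 and 13.7 to 14.6 CPM in sum). HAND2 fell among 8 neuroblastoma markers (-0.36 ± 0.12). No endothelial marker (5 of 6 tested) or haematopoietic marker (3 of 6 tested) was called. PDGFRA went from 0.634 and 0.735 CPM to 18.4 and 19.6 CPM, a direction opposite to IMR5-75. With DAC alone the same 3 stromal genes were called (sum 253 to 258 CPM) and with EPZ alone ACTA2, PDGFRA and DCN (sum 246 to 260 CPM). Their part in the result was not tested.

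Both lines shared 14 members that rose with both drugs: COL3A1, COL5A2, COL11A1, COL11A2, COL6A1, COL6A3, COL9A2, COL9A3, COL14A1, COL21A1, COL22A1, LAMA2, LAMA4 and LAMC1. They are 14 of 18 called higher in Be(2)-C and 14 of 32 in IMR5-75. Over all genes tested, 1332 rose in both lines with both drugs, which is 63% of those that rose in Be(2)-C and 32.4% of those in IMR5-75. With DAC alone the shared set was COL3A1, COL6A3, COL9A3, COL11A1, COL14A1 and COL21A1, which is 6 of 7 and 6 of 27. Over all genes 402 rose in both lines with DAC, or 67.6% and 12.6% of the genes that rose in each. COL3A1 and COL14A1 were the members called under all 3 treatments in Be(2)-C, and COL3A1 and COL2A1 those in IMR5-75.

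The size of the change differed between the lines for 7 members with DAC, 1 with EPZ and 15 with both drugs, tested as the line-by-treatment term. With DAC 6 were higher and 1 lower in IMR5-75 relative to Be(2)-C, beside 6.19% of all genes called, 5.13% higher and 1.06% lower. With EPZ the 1 call was lower, beside 1.19% called, 0.57% higher and 0.62% lower. With both drugs 12 were higher and 3 lower, beside 11.1% called, 6.71% higher and 4.35% lower. The term compares log2 fold changes, and starting levels differed between the lines, so gains in CPM can be ordered otherwise. With both drugs COL22A1 went from 38.8 and 36.6 to 54.6 and 67.6 CPM in Be(2)-C. In IMR5-75 it went from 1.4 and 1.35 to 6.9 and 6.74 CPM. COL9A2 gained more in IMR5-75 on both scales. It went from 0.885 and 0.841 to 28 and 32 CPM there and from 5.35 and 6.06 to 13.9 and 15.9 CPM in Be(2)-C.

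With DAC COL9A2 rose more in IMR5-75 by 3.90 ± 0.33 on the log2 scale (adjusted p = 5.29e-08). COL14A1 rose less there on that scale, by -1.61 ± 0.37. With EPZ COL4A2 differed by -1.72 ± 0.36 (adjusted p = 0.0176). This difference lost its call without Be(2)-C DMSO 2 (0.2), Be(2)-C EPZ 1 (0.156), IMR5-75 EPZ 1 (0.0535) or IMR5-75 EPZ 2 (0.051). COL14A1 with DAC lost its call without either Be(2)-C DMSO library (0.0785 and 0.0704). The 7 calls with DAC became 4 without Be(2)-C DMSO 2.

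With both drugs the type IV pair stood opposite to most of the rest. COL4A1 differed by -3.45 ± 0.38 (adjusted p = 1.66e-06) and COL4A2 by -2.92 ± 0.32 (1.52e-06), each higher with treatment in Be(2)-C and level in IMR5-75. COL14A1 also rose less in IMR5-75 on the log2 scale (-1.93 ± 0.37). The other 12 rose more in IMR5-75 on that scale, led by COL9A2 (3.72 ± 0.33) and with LAMA3 at 2.51 ± 0.57 (adjusted p = 0.00526) and COL22A1 at 1.61 ± 0.32. These 6 kept their calls without any 1 of the 8 libraries. The other 9 did not, and called members numbered 8 without Be(2)-C DMSO 1 and 9 without the first Be(2)-C library given both drugs.

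Genes that modify, anchor, bind or cut these chains were followed in 4 lists of 78 genes. Counts in these lists stand beside the shares of all genes called either way, which were 6.7% with DAC, 10.2% with EPZ and 23.7% with both drugs in Be(2)-C, and 33.7%, 1.98% and 46.2% in IMR5-75. Of 29 tested genes of collagen biosynthesis and processing 3 rose and 1 fell with DAC in Be(2)-C, 3 and 2 with EPZ and 7 and 3 with both drugs. In IMR5-75 these counts were 10 and 2, 1 and 0, and 13 and 3. The shares called were 13.8%, 17.2% and 34.5% in Be(2)-C and 41.4%, 3.45% and 55.2% in IMR5-75. LOXL4, a lysyl oxidase that cross-links collagen, rose under every treatment in both lines. Its log2 fold changes with DAC, EPZ and both drugs were 1.49 ± 0.28, 1.18 ± 0.3 and 2.18 ± 0.27 in Be(2)-C. In IMR5-75 they were 1.91 ± 0.2, 0.86 ± 0.21 and 2.44 ± 0.19. Its relative LOXL2 fell with DAC in both lines, by 1.21 in Be(2)-C and by 0.99 in IMR5-75 on the log2 scale. ADAMTS2, which trims fibrillar procollagens, read 6.8 and 6.34 CPM in Be(2)-C with DMSO and 18.1 and 20.3 CPM with EPZ (1.54 ± 0.18). P4HA1, a subunit of prolyl hydroxylase, fell there with EPZ (-0.52 ± 0.15) and with both drugs (-0.6 ± 0.15). It also fell in IMR5-75 with DAC (-0.5 ± 0.14) and with both drugs (-0.62 ± 0.14). The procollagen protease ADAMTS3 fell in Be(2)-C with both drugs (-0.72 ± 0.15).

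Of 10 tested basement membrane partners 1 rose in Be(2)-C with EPZ, 2 with both drugs and 0 with DAC by edgeR's test (1 at an unadjusted p under 0.05). In IMR5-75 4 rose and 1 fell with DAC as with both drugs, and 1 each with EPZ. The shares called were 0%, 10% and 20% in Be(2)-C with DAC, EPZ and both drugs, none above the background, and 50%, 20% and 50% in IMR5-75, where each single call is 10% of so short a list. AGRN, a heparan sulfate proteoglycan that binds laminin, went from 18.9 CPM in both DMSO libraries of Be(2)-C to 56 and 43.6 CPM with EPZ (1.40 ± 0.19). It also rose there with both drugs (1.27 ± 0.19). In IMR5-75 it rose with DAC (1.05 ± 0.2), EPZ (0.83 ± 0.2) and both drugs (1.49 ± 0.19). NID1, the link between laminin and type IV collagen, read 0.272 and 0.0918 CPM in Be(2)-C with DMSO and 0.801 and 1.57 CPM with both drugs (2.60 ± 0.73), against 31 and 27.5 CPM in IMR5-75 DMSO. FBLN1 fell in IMR5-75 with EPZ (-0.68 ± 0.16) and with both drugs (-0.66 ± 0.16).

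Of 16 collagen and laminin receptors 4 rose and 1 fell in Be(2)-C with DAC, 2 and 1 with EPZ and 8 and 1 with both drugs. In IMR5-75 8, 1 and 10 rose and none fell by this test. The shares called were 31.2%, 18.8% and 56.2% in Be(2)-C and 50%, 6.25% and 62.5% in IMR5-75. ITGA3, the alpha subunit of a laminin-binding integrin, read 1.77 and 1.68 CPM in IMR5-75 with DMSO, 15.1 and 10.6 CPM with DAC, 4.41 and 4.09 CPM with EPZ and 17.5 and 21.4 CPM with both drugs. Its log2 fold changes were 2.89 ± 0.25, 1.29 ± 0.28 and 3.49 ± 0.24. In Be(2)-C ITGA3 rose with EPZ (1.17 ± 0.32) and with both drugs (1.79 ± 0.3). ITGA11, of a collagen-binding integrin, rose in Be(2)-C with DAC (1.37 ± 0.35). The syndecan SDC1 fell in Be(2)-C under all 3 treatments (-0.56 ± 0.14, -0.54 ± 0.14 and -0.83 ± 0.14). It rose in IMR5-75 with DAC (0.88 ± 0.14) and with both drugs (0.68 ± 0.14).

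Of 14 tested matrix proteases and inhibitors 1 rose in Be(2)-C with DAC, 3 with EPZ and 7 with both drugs. In IMR5-75 6 rose and 2 fell with DAC, 9 and 1 with both drugs, and 0 were called with EPZ by edgeR's test (1 at an unadjusted p under 0.05). The shares called were 7.14%, near the background, 21.4% and 50% in Be(2)-C and 57.1%, 0% and 71.4% in IMR5-75. TIMP1, an inhibitor of matrix metalloproteases, went from 0.442 and 0.168 CPM to 9.13 and 7.1 CPM with DAC in IMR5-75 (4.65 ± 0.47), while Be(2)-C held it at 25.4 to 29.5 CPM with DMSO. MMP14, a membrane-bound collagenase, rose in Be(2)-C with both drugs from 0.453 and 0.551 CPM to 4.36 and 2.94 CPM (2.85 ± 0.39). It also rose in IMR5-75 with DAC (2.66 ± 0.3) and with both drugs (3.38 ± 0.29). MMP16 fell in IMR5-75 with DAC (-0.89 ± 0.15) and with both drugs (-1.27 ± 0.15).

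Promoter windows in the RefSeq table matched 40 of the 55 members. Of members that rose with DAC in IMR5-75, COL1A1, COL2A1, COL3A1, COL5A2, COL8A1, COL9A3, COL14A1 and COL22A1 had no window. The values below leave them out, so they do not describe all members that rose. In the 250 bases before the start, the 19 matched members that rose with DAC in IMR5-75 held 1 to 32 CG with a median of 12, and the 16 not called held 1 to 40 with a median of 26.5. The only called fall, COL18A1, held 37. The medians lay closer with both drugs. In IMR5-75 they were 12.5 for 22 matched members that rose and 21 for 14 not called. In Be(2)-C they were 12 for 11 that rose, which held 3 to 40 CG, and 16 for 25 not called. All 35116 windows of the table had a median of 11, and both strands read the same since CG is its own complement. These counts are a description of letters, and DNA methylation was not analysed here. Several members are neighbours in the genome: COL4A1 and COL4A2, COL4A3 and COL4A4 (418 bases between starts), COL4A5 and COL4A6 (379), COL3A1 and COL5A2, COL6A1 and COL6A2, COL9A1 and COL19A1. The strand setting of the counting is not given in the sources used here. Reads near the shared starts of type IV pairs cannot be assigned with certainty.

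The remaining 10 tested members were called in no comparison of a treatment against DMSO by this test. LAMA1 and COL25A1 kept to IMR5-75, where COL25A1 read 21.2 to 29.7 CPM over all 8 libraries, and COL16A1 ran from 40.3 to 70.7 CPM there. LAMB3, LAMB4, COL4A3, COL6A5, COL7A1, COL10A1 and COL23A1 stayed between 0 and 12.5 CPM in all libraries. Of the 6 that failed the filter, COL1A2 read 0 to 0.944 CPM and COL5A3 0 to 0.741 CPM. COL4A5, COL4A6, COL15A1 and COL20A1 likewise stayed below 1 CPM in every library. COL4A5 had 1 count in the Be(2)-C DMSO group and 16 with both drugs, a ratio of 16.9 with an interval from 2.62 to 708.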

How the data were processed

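RNA was measured in 16 libraries of 2 neuroblastoma lines; ribosomal RNA was removed first and a strand-specific kit was used, per the labels' protocols. The deposited table holds raw counts per gene symbol, which the authors made with tools named in the submitters' processing notes as TopHat2 2.0.5, HTSeq 0.5.3p9 and DESeq2 (no version) on hg19; the annotation is not given in the sources used here. Genes were filtered with filterByExpr by group, scaled by TMM and fitted in edgeR 4.0.16 (R 4.3.3) with 8 group means over all 16 libraries (8 residual degrees of freedom, common biological CV 9.88%). Quasi-likelihood p-values were adjusted by Benjamini-Hochberg over all 15967 genes tested, and a call is an adjusted p under 0.05. In all 16 comparisons were made. Fold changes are log2 with standard errors.

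Where a control group held 1 to 3 counts, a ratio of counts with its exact binomial 95% interval is given. With 0 counts, the bound is set against 3 counts over the group. CPM are counts over TMM-scaled library size, and 1 count of a rare gene sets the precision. Alternatives were DESeq2 size factors, no filter, DESeq2 1.42.0, a replicate block, each line alone and each library left out, where the lone library is assumed to vary like the others. The fit was tested on simulated data.

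Named were members called in any treatment comparison, the 5 most abundant, the top of each class and the type IV pairs, and from the companion lists the 2 highest and 2 lowest called changes of each treatment with mean log2 CPM of at least 1. Other members were named to account for the rest, and a few genes are not reported here. Members and lists were chosen with earlier results of these data known.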

Additional observations from a re-analysis of the deposited data

Results flagged for a closer look

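For 23 values the change against DMSO differed between the lines by the line-by-treatment term of the edgeR fit at an adjusted p under 0.05 (IMR5-75 minus Be(2)-C, log2). With DAC these were COL9A2 (3.90), COL24A1 (4.06), COL19A1 (2.34), COL9A3 (2.12), COL22A1 (1.87), COL5A2 (1.13) and COL14A1 (-1.61). COL9A2, COL19A1 and COL22A1 kept the call without any 1 of the 8 libraries, and COL19A1 was 2.94 without IMR5-75 DMSO 1. COL9A3 had 0 counts in IMR5-75 DMSO 2, without which its difference was 1.21 (adjusted p = 0.159). COL24A1 had an adjusted p of 0.278 without Be(2)-C DMSO 2, 0.0617 without Be(2)-C DAC 2 and 0.0827 without IMR5-75 DMSO 1, and COL5A2 of 0.0836 without Be(2)-C DMSO 2 and 0.0517 without IMR5-75 DMSO 2. With EPZ it was COL4A2 (-1.72).

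With both drugs they were COL9A2 (3.72), COL24A1 (3.35), LAMC3 (3.0), COL12A1 (2.79), COL2A1 (2.68), LAMA3 (2.51), COL19A1 (1.64), COL22A1 (1.61), LAMA4 (1.58), COL6A3 (1.55), COL5A2 (1.15), LAMB2 (0.91), COL14A1 (-1.93), COL4A2 (-2.92) and COL4A1 (-3.45). COL12A1 read 0.544 and 0.0918 CPM in Be(2)-C with DMSO, and its difference was 1.10 without Be(2)-C DMSO 1 (adjusted p = 0.827) and 3.54 without Be(2)-C DMSO 2. COL24A1 moved to 4.34 without IMR5-75 DMSO 2, COL2A1 to 3.35 without Be(2)-C DAC+EPZ 2 and COL19A1 to 2.28 without IMR5-75 DMSO 1. The highest adjusted p without 1 library was 0.111 for LAMC3 and 0.122 for COL6A3 (both without Be(2)-C DMSO 1), and 0.311 for COL24A1, 0.196 for COL2A1, 0.141 for COL19A1 and 0.0504 for COL5A2 (all without Be(2)-C DMSO 2). It was 0.11 for LAMA4 without IMR5-75 DMSO 2 and 0.0808 for LAMB2 without IMR5-75 DMSO 1. No explanation was tested.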

How the results depend on the processing

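No log2 fold change that was called in the main fit or in an alternative changed sign between them. Values called in neither, and departures from the sum of the single drugs, were not checked for sign. For treatments against DMSO only the named members were checked. Called members per comparison without 1 library ranged from 3 to 5 (8 with all libraries) for Be(2)-C DAC, 1 to 4 (6) for Be(2)-C EPZ, 12 to 16 (18) for Be(2)-C both drugs, 6 to 10 (11) for both drugs against DAC there, 1 to 2 (2) for IMR5-75 EPZ, 23 to 28 (28) for IMR5-75 DAC, 29 to 30 (32) for IMR5-75 both drugs and 2 to 5 (7) for both drugs against DAC there. They ranged from 4 to 9 (7), 0 to 2 (1) and 8 to 13 (15) for the line differences of DAC, EPZ and both drugs. Under other settings, counts moved by over 1.5 times with the replicate block (5 for Be(2)-C DAC, 1 for IMR5-75 EPZ and 3 for both drugs against DAC in IMR5-75), without the filter (5 for IMR5-75 EPZ and 2 for the line difference of EPZ), with IMR5-75 fitted alone (4 for both drugs against DAC) and with DESeq2's test (3 for the same). Correlations of same-numbered deviations within a line ran from -0.25 to 0.136, which shows no clear pairing by replicate number. Each group gives only 1 deviation per gene, so this check cannot settle whether the libraries are paired. Genes near the floor of 3 counts give wide intervals, and 2 libraries per group leave a single library to decide many calls in Be(2)-C.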
